A study of Mus musculus with 10 samples.

Results

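The genes described here are 10 members of the Notch pathway measured in the intermediate lobe (IL) of the mouse pituitary: the receptors Notch1, Notch2 and Notch3, the ligands Dll1, Dll4 and Jag1, and the transcriptional regulators Hes1, Hes6, Hey1 and Hey2. They were chosen by symbol, whatever their values, as the rows whose Ensembl identifier maps to these names, and all 10 were found among the 29527 genes of the deposited table. All 10 also passed the minimum for testing, a mean of 10 on the linear scale over the 10 samples, which 17268 genes reached. RNA of dissected IL was sequenced in bulk from 4 wild-type (WT) mice, 3 p27-/- mice and 3 p27-/-;Sox2+/- mice of 2 to 3 months of age, with 1 library per mouse. The p27-/- mice lack both functional copies of Cdkn1b, the gene of the cell cycle inhibitor P27, in every cell from conception, and the p27-/-;Sox2+/- mice carry the same loss and in addition a single functional copy of Sox2, a transcription factor of stem cells. All mice were kept on a mixed genetic background, animals of both sexes were used, and the design holds no mice with the Sox2 deletion alone. Values are the authors' normalised expression on the log2 scale, and a log2 fold change is the difference between 2 genotype means on that scale.

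Notch receptors are single-pass membrane proteins that are bound by Delta-like and Jagged ligands on a neighbouring cell, cleaved, and release an intracellular fragment that joins the DNA-binding protein RBPJ and a Mastermind co-activator on target genes. Hes and Hey genes are the best known of these targets and encode repressors of differentiation factors, whereas Hes6 encodes a relative that opposes HES1. In the pituitary the pathway is known for holding progenitors in an undifferentiated state, and in blood vessels Notch1, Dll4, Hey1 and Hey2 act in endothelium and Notch3 in the mural cells around it. The IL consists mainly of melanotrophs, which make melanocyte stimulating hormone from the precursor encoded by Pomc, and has a layer of SOX2-positive stem cells along the cleft.

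Promoter sequences are shown first because RBPJ is the factor through which cleaved Notch acts: that of Notch1, the member that fell in both mutants, that of Hey2, the member with RBPJ motifs, and that of Lfng, a pathway gene with the same number of motifs. RefSeq promoters of GRCm38.p6 were found for 8 of the 10 members, all but Hes1 and Hey1. Each was searched from 250 bases before to 50 bases after the annotated start, on both strands, for the RBPJ core TGGGAA. Hey2 was the only one of the 8 with a match, and it had 2: one on the minus strand beginning 207 bases before the start, and one on the plus strand that spans the start itself. Both Hey2 matches extend to the longer form GTGGGAA. Among all 32851 promoters of the same length, 25.6% held at least 1 TGGGAA and 3.79% held 2 or more, and 6.38% held GTGGGAA. Lfng, which encodes a glycosyltransferase of Notch receptors, also had 2 matches, 135 bases before the start on the minus strand and 108 bases before it on the plus strand. The latter is a GTGGGAA and overlaps CACGTG, an E-box bound by HES and HEY proteins that 7.15% of promoters held. The Notch1 window held no RBPJ core and 3 matches to CACNAG, the N-box of HES proteins, of which 2 overlap each other at the start, and 42.5% of promoters held at least 1 CACNAG. The 250 bases before each start are given 5′ to 3′ on the strand of the gene, for Notch1 at chr2:26503823-26504072 (minus strand), for Hey2 at chr10:30842784-30843033 (minus strand) and for Lfng at chr5:140607091-140607340 (plus strand), with RBPJ cores that lie wholly in them in capitals, read as TTCCCA where the core is on the other strand.
Notch1: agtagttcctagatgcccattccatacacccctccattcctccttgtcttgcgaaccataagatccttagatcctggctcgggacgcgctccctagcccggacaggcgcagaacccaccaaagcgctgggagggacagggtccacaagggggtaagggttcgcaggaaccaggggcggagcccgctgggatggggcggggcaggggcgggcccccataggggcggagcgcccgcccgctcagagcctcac
Hey2: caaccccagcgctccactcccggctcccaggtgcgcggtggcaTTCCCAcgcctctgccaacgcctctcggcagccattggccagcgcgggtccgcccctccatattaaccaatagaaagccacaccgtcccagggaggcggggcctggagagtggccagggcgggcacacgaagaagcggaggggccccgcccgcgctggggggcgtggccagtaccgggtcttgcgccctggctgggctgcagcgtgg
Lfng: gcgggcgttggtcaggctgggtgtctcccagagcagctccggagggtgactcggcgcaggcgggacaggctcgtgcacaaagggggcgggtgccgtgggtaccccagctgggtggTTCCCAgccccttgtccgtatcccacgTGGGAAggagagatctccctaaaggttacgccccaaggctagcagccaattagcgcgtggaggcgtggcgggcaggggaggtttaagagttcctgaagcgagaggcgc
A match is a sequence and not a measured binding site, and no binding was measured in these samples.

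Before the comparisons, the labels and the tissue were checked. Cdkn1b transcript was still read in the mutants, at 8.04 to 8.27 in p27-/- and 7.73 to 8.10 in p27-/-;Sox2+/- against 8.39 to 8.85 in WT samples, and Sox2 was lowest in the p27-/-;Sox2+/- samples (6.88 to 7.07, against 7.08 to 7.75 in the others). In the limma test described below, Cdkn1b was lower in p27-/- (adjusted p = 0.047, lost in 15 of 21 alternative settings) and in p27-/-;Sox2+/- (0.00854, lost in 1 of 21). Sox2 in p27-/-;Sox2+/- did not pass against WT (limma adjusted p = 0.0811) or p27-/- (0.791). The melanotroph genes Pomc (18.00 to 19.00) and Pax7 (11.45 to 11.97) were high in all 10 samples. Markers of other cells were also read in each sample, among them Pecam1 and Cdh5 of endothelium (5.37 to 6.83), Pdgfrb and Rgs5 of mural cells (5.42 to 10.57) and Sox9 of stem cells (8.23 to 8.60), and none of these markers was at 0. The mean of 6 markers of the posterior lobe, which adjoins the IL, was 0.62, 0.77 and 0.89 on the log2 scale, centred over the samples, in WT replicates 1, 3 and 4 and -0.60 in WT replicate 2, it lay between -0.39 and -0.04 in p27-/- samples, and it was 0.54 in p27-/-;Sox2+/- replicate 3 against -0.71 and -0.76 in the other two. In bulk tissue, fewer cells of a type and less RNA per cell cannot be told apart. Depth cannot be read from the table, so that precision rests on the number of mice.

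Levels were first compared among the members, per kilobase of exon, since a longer transcript gives more reads. In WT IL the order on the log2 scale per kilobase was Hey1 at 7.44 ± 0.27 (SD, n = 4), Notch2 at 6.80 ± 0.32, Hes6 at 6.44 ± 0.15, Hes1 at 4.66 ± 0.14, Hey2 at 4.35 ± 0.15, Notch1 at 3.86 ± 0.24, Notch3 at 3.71 ± 0.20, Jag1 at 2.18 ± 0.17, Dll4 at 2.06 ± 0.04 and Dll1 at 1.3 ± 0.11. Neighbours in this order whose means lay within the sum of their SDs were Notch2 and Hes6, Notch1 and Notch3, and Jag1 and Dll4. The ligands were thus the lowest members and Notch2 the highest receptor. Of the ligands that are not members, Dll3 stood at 4.71 ± 0.17, Jag2 at 4.66 ± 0.23 and the non-canonical Dlk1 at 5.14 ± 0.75 on the same scale in WT, near or above Hes1. Dlk2, also non-canonical, stood at 0.56 ± 0.15. Over the 4 Notch receptors, Notch4 included, Notch2 accounted for 77.9% ± 2.38 (SD, n = 4) of the level per kilobase in WT samples. This share was 78.4% ± 0.72 (SD, n = 3) without P27, and 82.3% ± 2.03 (SD, n = 3) where a copy of Sox2 was lost too. Notch1 accounted for 10.2% ± 1.37, 8.03% ± 0.59 and 6.58% ± 1.35 in the same order. Exon lengths came from an older annotation than that of the authors, so the order between genes and the receptor shares depend on it, whereas the log2 fold changes between genotypes do not.

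**Figure D1:**
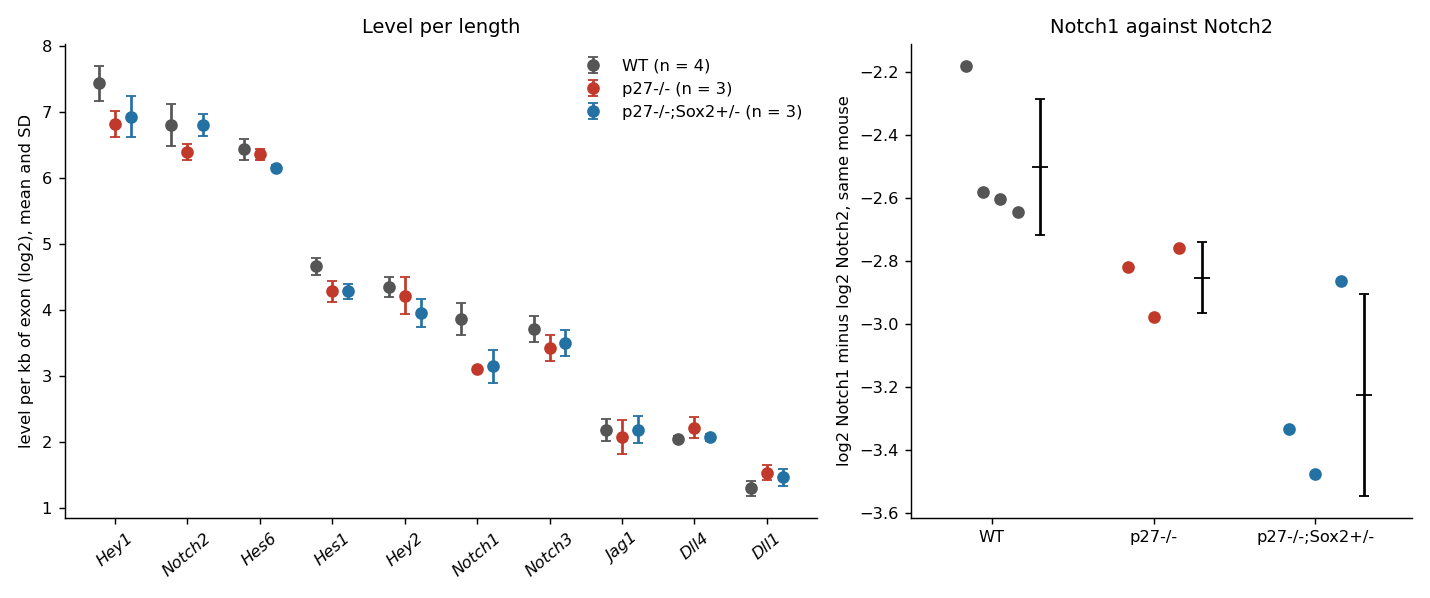
Left, level of each member per kilobase of exon (log2) as mean and SD for WT (grey, n = 4), p27-/- (red, n = 3) and p27-/-;Sox2+/- samples (blue, n = 3), ordered by the WT mean: Hey1, Notch2 and Hes6 stand above the rest and the 3 ligands are lowest. Right, log2 value of Notch1 minus that of Notch2 in the same mouse, with mean and SD beside the points: the 4 WT mice lie between -2.64 and -2.18, above every mutant mouse.

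The comparison of p27-/- with WT asks which of these genes differ when P27 is absent, at an age at which tumours have not yet formed. Of the 10 members, 2 fell and none rose: the receptor Notch1 and the target Hey1, tested with limma and Benjamini-Hochberg adjustment over all 17268 genes at a threshold of 0.05. Of all tested genes, 7.78% were called in this comparison, 4.62% lower and 3.16% higher. The median log2 fold change of the members was -0.21, against 0.01 for all tested genes, and 8 of the 10 were below 0. At an unadjusted p under 0.05 there were 5 members, of which 4 were lower and 1 was higher, where 24.1% of all tested genes passed. The p27-/- and WT samples did not overlap for 4 members that were lower (Notch1, Notch2, Hes1 and Hey1), where 10.3% of all genes were lower without overlap, and for 1 that was higher (Dll4), against 10.2%.

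Among the receptors, Notch1 (ENSMUSG00000026923, chromosome 2 from 26457902 to 26503822 of GRCm38.p6) had log2 values of 7.74, 7.36, 7.75 and 7.93 in WT replicates 1 to 4, of 6.97, 6.94 and 6.90 in p27-/- and of 7.05, 6.70 and 7.19 in p27-/-;Sox2+/- replicates 1 to 3. Every mutant sample was lower than every WT sample, the lowest WT sample being replicate 2 and the highest mutant sample p27-/-;Sox2+/- replicate 3. Its log2 fold change in p27-/- was -0.76 (standard error 0.14, limma adjusted p = 0.00818), a level of 0.592 times that of WT. The call held with each sample left out in turn (adjusted p from 0.0024 to 0.0445).

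Notch2 (ENSMUSG00000027878, chromosome 3 from 98013538 to 98150367) is the receptor that leads in this tissue. It had log2 values of 9.92, 9.95, 10.35 and 10.58 in WT, of 9.79, 9.92 and 9.66 in p27-/- and of 10.38, 10.18 and 10.05 in p27-/-;Sox2+/- samples. The p27-/- samples were the lowest of all, but the nearest WT sample, replicate 1, was higher by less than 0.01. The difference of -0.41 on the log2 scale (standard error 0.15, limma adjusted p = 0.107) did not pass the threshold, and it did so without WT replicate 1 (-0.50, adjusted p = 0.0403). WT replicates 3 and 4, with the highest Notch2 values of their genotype, were among the 4 samples with low Xist, between 8.78 and 9.29, as were p27-/- replicate 2 and p27-/-;Sox2+/- replicate 1, each the highest of its genotype. The paper lists as many males in each genotype as there were samples with low Xist, without naming the sex of single samples. With Xist as a covariate, Notch2 had a coefficient of -0.06 per log2 unit of Xist (limma unadjusted p = 0.00143, adjusted p = 0.411). This coefficient was called for 0.0695% of all tested genes. Whether sex contributed to the Notch2 values was not tested. Notch3 (ENSMUSG00000038146), which marks mural cells of vessels, ranged from 6.55 to 7.00 in WT and from 6.29 to 6.66 in p27-/- samples, which overlapped, and its log2 fold change was -0.29 (adjusted p = 0.247).

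The ligands among the members had low values that differed little. Dll1 (ENSMUSG00000014773) ranged from 3.29 to 3.53 in WT and from 3.52 to 3.74 in p27-/- samples (log2 fold change 0.24, standard error 0.09, limma adjusted p = 0.133). Dll4 (ENSMUSG00000027314), the ligand of sprouting endothelium, had values of 3.95, 4.05, 4.01 and 4.00 in WT and of 4.07, 4.07 and 4.35 in p27-/- samples. These did not overlap, since the lowest p27-/- sample was just above the highest WT sample, but the log2 fold change of 0.16 did not pass (adjusted p = 0.299). Jag1 (ENSMUSG00000027276) ranged from 4.53 to 4.89 in WT and from 4.33 to 4.79 in p27-/- samples (log2 fold change -0.10, adjusted p = 0.721). The transformation behind the log2 values is not given in the sources used here, and how it treats genes of low level was not tested.

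Among the targets, Hey1 (ENSMUSG00000040289, chromosome 3 from 8663359 to 8667038), a repressor of the bHLH class, had log2 values of 8.40, 8.32, 8.91 and 8.67 in WT, of 8.18, 7.81 and 7.90 in p27-/- and of 7.91, 7.88 and 8.42 in p27-/-;Sox2+/- samples. The p27-/- samples all lay below the WT samples, whereas p27-/-;Sox2+/- replicate 3 lay among them. The log2 fold change in p27-/- was -0.61 (standard error 0.16, limma adjusted p = 0.0375). This call was lost without p27-/- replicate 2 (adjusted p = 0.138), p27-/- replicate 3 (0.134), WT replicate 3 (0.0859) or WT replicate 4 (0.0894), and with no filter on low values (0.0673). Hes1 (ENSMUSG00000022528, chromosome 16 from 30065357 to 30067796), a target in many tissues, had values of 5.67, 5.60, 5.60 and 5.88 in WT, of 5.14, 5.34 and 5.44 in p27-/- and of 5.37, 5.18 and 5.39 in p27-/-;Sox2+/- samples. All 6 mutant samples were below all 4 WT samples, and the difference of -0.38 in p27-/- (standard error 0.12) missed the threshold (limma adjusted p = 0.0713). Hey2 (ENSMUSG00000019789), whose promoter holds the RBPJ cores shown above, ranged from 5.54 to 5.88 in WT and from 5.31 to 5.87 in p27-/- samples (log2 fold change -0.13, adjusted p = 0.623). Hes6 (ENSMUSG00000067071), the antagonist of HES1, ranged from 7.11 to 7.48 in WT and from 7.17 to 7.31 in p27-/- samples (log2 fold change -0.07, adjusted p = 0.731).

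**Figure D2:**
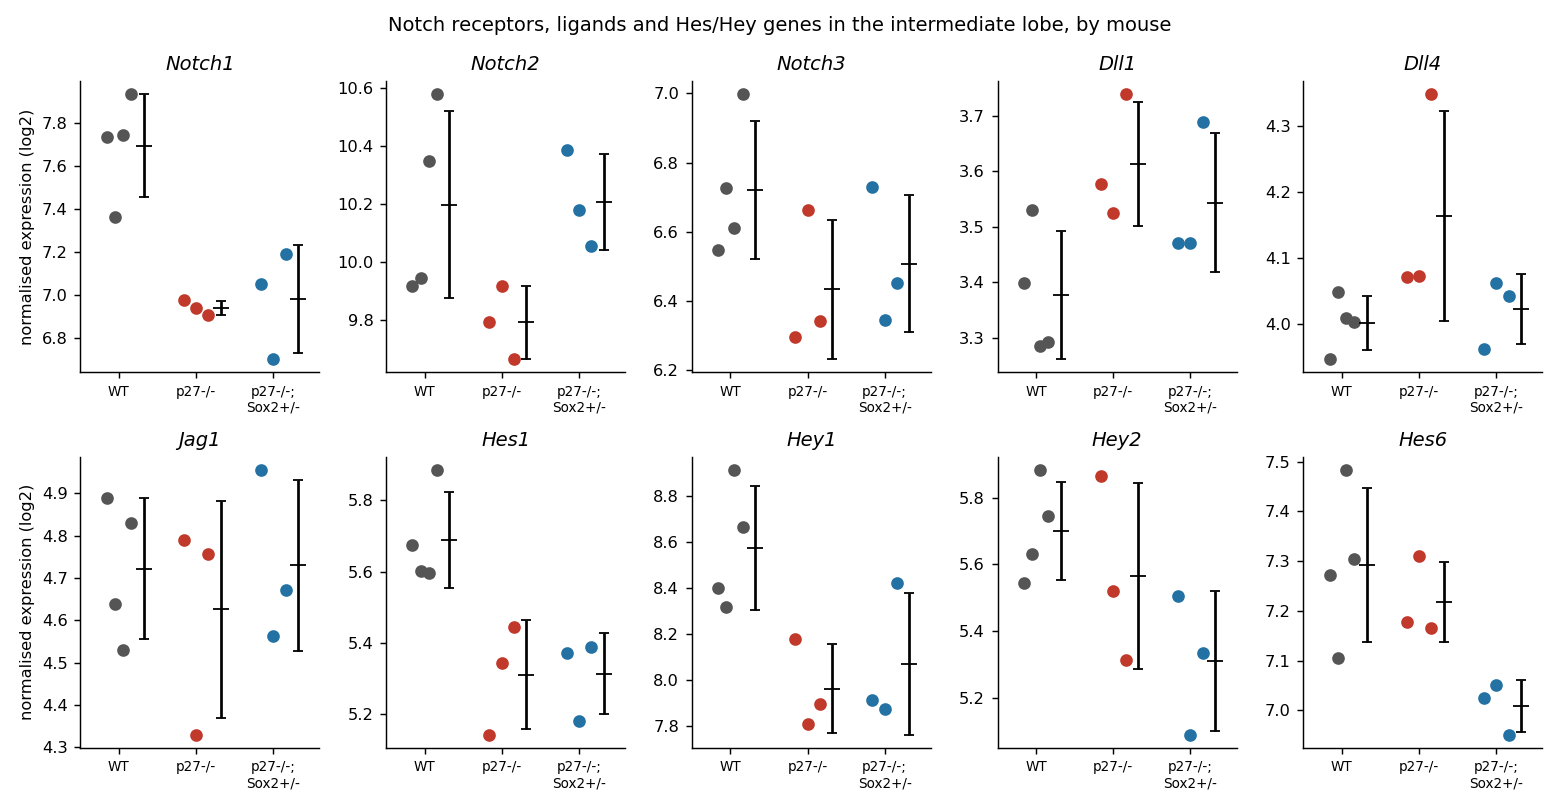
Normalised expression (log2, axis not starting at 0 and different in each panel) of the 10 members in each mouse, 1 point per mouse, for WT (grey), p27-/- (red) and p27-/-;Sox2+/- (blue), with mean and SD as black bars beside the points. For Notch1 and Hes1 all 6 mutant mice lie below the 4 WT mice, for Hey1 1 p27-/-;Sox2+/- mouse (8.42) lies among them, and for Hes6 and Hey2 only the p27-/-;Sox2+/- mice all lie below WT.

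The comparison of p27-/-;Sox2+/- with WT asks which genes differ once a copy of Sox2 is removed as well. It shares its WT samples with the comparison above, so that the results are not independent of each other. Only Notch1 was called among the 10 members, and it fell by 0.72 on the log2 scale (standard error 0.14, limma adjusted p = 0.0202), where 2.71% of all tested genes were called, 1.88% lower and 0.828% higher. The median log2 fold change of the members was -0.25, against 0.01 for all tested genes, and 6 of the 10 were below 0. The Notch1 call was lost without p27-/-;Sox2+/- replicate 1 (adjusted p = 0.0574), p27-/-;Sox2+/- replicate 2 (0.121) or WT replicate 4 (0.057).

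At an unadjusted p under 0.05 there were 5 members, all lower (Notch1, Hes1, Hey1, Hey2 and Hes6), where 17.8% of all tested genes passed. Hes1 had a log2 fold change of -0.37 (limma adjusted p = 0.117), and Hey1 of -0.50 (adjusted p = 0.118). Hey2 had values of 5.54, 5.63, 5.88 and 5.75 in WT and of 5.51, 5.09 and 5.33 in p27-/-;Sox2+/- samples, which did not overlap (log2 fold change -0.39, standard error 0.15, limma adjusted p = 0.179). Hes6 had values of 7.27, 7.11, 7.48 and 7.30 in WT and of 7.02, 7.05 and 6.95 in p27-/-;Sox2+/- samples, also without overlap (log2 fold change -0.28, standard error 0.11, limma adjusted p = 0.193). Groups without overlap were thus found for 4 members that were lower, Notch1, Hes1, Hey2 and Hes6, where 8.01% of all genes were lower and 7.02% higher without overlap. The remaining receptors and the ligands had log2 fold changes between -0.21 (Notch3, adjusted p = 0.473) and 0.17 (Dll1, adjusted p = 0.369), with 0.01 for Notch2.

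The direct comparison of p27-/-;Sox2+/- with p27-/- asks whether the Sox2 copy number is accompanied by a difference when P27 is absent. No member was called by limma, 1 had an unadjusted p under 0.05, and array weights, the other weighting tried, also called none. Over all tested genes 0.145% were called and 6.65% had an unadjusted p under 0.05. The member with the unadjusted p under 0.05 was Notch2, which differed by 0.41 (standard error 0.16, 95% interval 0.08 to 0.75, limma adjusted p = 0.585). All 3 p27-/-;Sox2+/- samples were above all 3 p27-/- samples for Notch2, as was the case for 7.51% of all genes, and below them for Hes6 and Dll4, as for 7.75%. The intervals bound the other differences: for Notch1 the difference was 0.04 with a 95% interval of -0.29 to 0.37, for Hes1 0.00 with -0.27 to 0.28, and for Hey1 0.11 with -0.27 to 0.48.

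**Figure D3:**
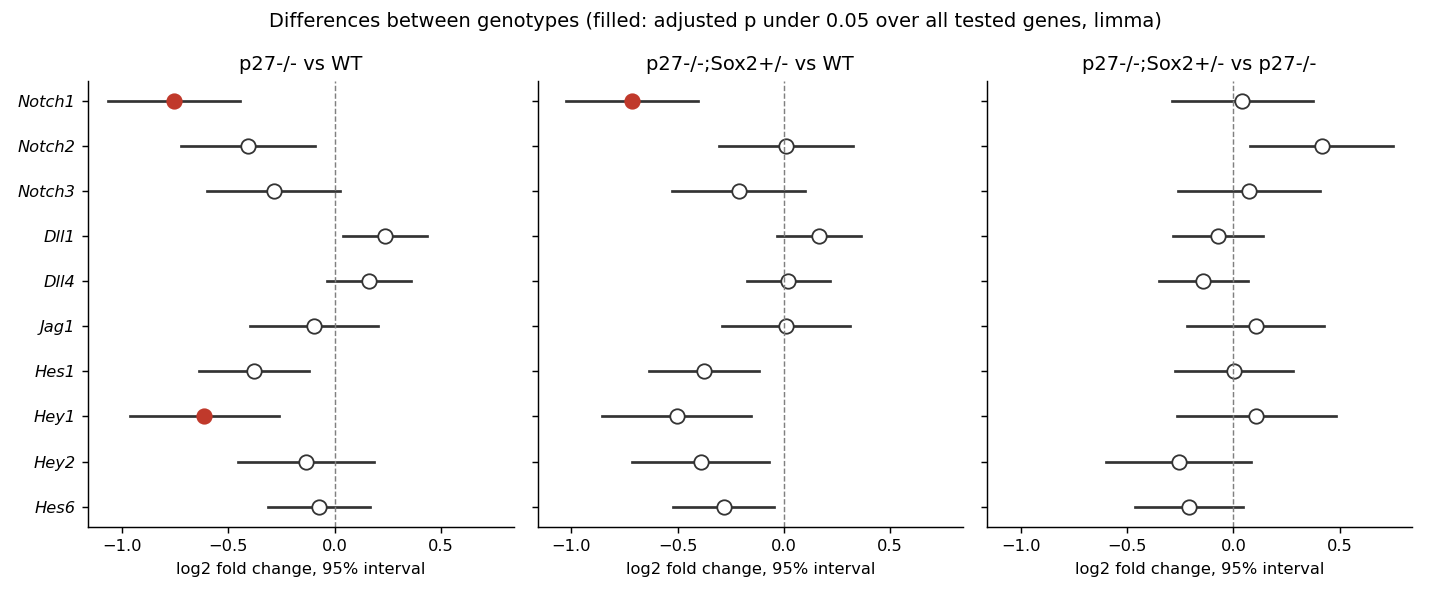
Log2 fold change of each member (points) with its unadjusted 95% interval (lines) in the 3 comparisons, filled where the adjusted p over all 17268 tested genes was under 0.05. Notch1 is filled in both comparisons with WT (-0.76 and -0.72) and Hey1 in p27-/- only (-0.61), while no member is filled between the mutants.

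Within a mouse, the balance of the receptors can be read without reference to other samples. The log2 value of Notch1 minus that of Notch2 was -2.18, -2.58, -2.60 and -2.64 in WT, -2.82, -2.98 and -2.76 in p27-/- and -3.33, -3.48 and -2.86 in p27-/-;Sox2+/- samples. The 4 WT samples lay above all 6 mutant samples, and the mutants overlapped each other. Hey1 minus Hey2 ranged from 2.69 to 3.03 in WT, from 2.29 to 2.58 in p27-/- and from 2.41 to 3.09 in p27-/-;Sox2+/- samples. Against Sox9, a gene of the stem cells that was not called in either mutant (log2 fold changes -0.17 and -0.08), Notch1 was lower by 0.78 ± 0.13 in WT, by 1.36 ± 0.06 in p27-/- and by 1.41 ± 0.21 in p27-/-;Sox2+/- samples. Sox9 is 1 of 6 stem cell markers tested, and another of them, Cyp2f2, fell in p27-/- (log2 fold change -0.69, limma adjusted p = 0.0186). Against Kdr, the receptor of vascular endothelial growth factor on endothelium, Notch1 was higher by 0.49 ± 0.13, 0.55 ± 0.43 and 0.44 ± 0.11, and these ranges overlapped between all genotypes. Kdr had the lowest log2 fold change in p27-/- (-0.83) of the 9 endothelial markers tested, whose median was -0.23. Against Cdh5, the cadherin of endothelial junctions, Notch1 was higher by 0.737 to 1.305 in WT, by 0.64 to 0.93 in p27-/- and by 0.14 to 0.39 in p27-/-;Sox2+/- samples, and the p27-/-;Sox2+/- samples were below all samples of the other genotypes. These ratios were chosen with the values known and are given without a test.

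Most marker lists of other cells had medians below 0 in both mutants, as Notch1 and Hey1 did. Of 10 endothelial markers 9 were tested, and all 9 were below 0 in p27-/- against WT, with a median of -0.23 and 1 called, Kdr (log2 fold change -0.83, limma adjusted p = 0.00966). In p27-/-;Sox2+/- samples 8 of the 9 were below 0, with a median of -0.21, and Kdr was again called (-0.67, adjusted p = 0.0459). The endothelial markers Pecam1 and Cdh5 had log2 fold changes of -0.21 and -0.39 in p27-/- (adjusted p = 0.507 and 0.0559) and of -0.29 and 0.10 in p27-/-;Sox2+/- samples (adjusted p = 0.424 and 0.708). The summed linear value of the endothelial markers ranged from 482 to 627 in WT, from 372 to 464 in p27-/- and from 403 to 531 in p27-/-;Sox2+/- samples. The paper describes the IL as avascular and reports ectopic blood vessels in juvenile p27-/- IL, seen by immunofluorescence and not by transcript level. Whether the endothelial transcripts read here came from the IL or from tissue beside it was not tested. None of the 7 mural markers tested was called in either mutant, and 5 and 6 of them were below 0. All 6 posterior lobe markers were below 0 in both mutants, with medians of -0.67 and -0.79, and none was called. Their summed linear value ranged from 224 to 1107 in WT, from 292 to 389 in p27-/- and from 184 to 758 in p27-/-;Sox2+/- samples. Of 8 stem cell markers 6 were tested and 1 fell in p27-/-, Cyp2f2. Of these 6, 5 were below 0 in p27-/- and 4 in p27-/-;Sox2+/- samples, with medians of -0.22 and -0.07. The summed linear value of the stem cell markers, of which Cyp2f2 had the highest level, ranged from 3861 to 4325 in WT, from 2073 to 3186 in p27-/- and from 2648 to 3330 in p27-/-;Sox2+/- samples. The 5 fibroblast markers had medians of -0.53 and -0.36, with 1 called, Pdgfra in p27-/- (log2 fold change -0.75, limma adjusted p = 0.0459). The 4 anterior lobe hormone genes had medians of -0.54 and -1.03, with 1 called in each mutant, Fshb (-2.04 and -2.27, limma adjusted p = 0.028 and 0.0294). All 6 macrophage markers were below 0 in both mutants, with medians of -0.16 and -0.31, and none was called. The 4 melanotroph genes had medians above 0, of 0.27 and 0.12, with 1 called in p27-/-, Pcsk2. The part of these cells in the Notch1 and Hey1 values was not tested beyond the covariates given next.

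With the mean of the posterior lobe markers as a covariate, an alternative chosen after seeing the data, Notch1 had a log2 fold change of -0.56 in p27-/- (limma adjusted p = 0.0425), Notch1 in p27-/-;Sox2+/- one of -0.51 (adjusted p = 0.122), and Hey1 one of -0.40 in p27-/- (adjusted p = 0.194). With the mean of the endothelial markers as a covariate, chosen likewise, these values were -0.56 (adjusted p = 0.128), -0.58 (adjusted p = 0.101) and -0.54 (adjusted p = 0.211). The Notch1 call in p27-/- therefore held beside the posterior lobe markers but not beside the endothelial ones, the Notch1 call in p27-/-;Sox2+/- and the Hey1 call were lost beside either, and all of these log2 fold changes stayed below 0. Over all tested genes the calls in p27-/- fell from 1343 to 372 and 361 in these fits. They had fewer residual degrees of freedom than the main fit, as did the fits with Xist as a covariate (1171 genes called) and with a replicate block (595). Why the calls fell was not tested. The source of the differences between genotypes in the tissue was not tested.

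**Figure D4:**
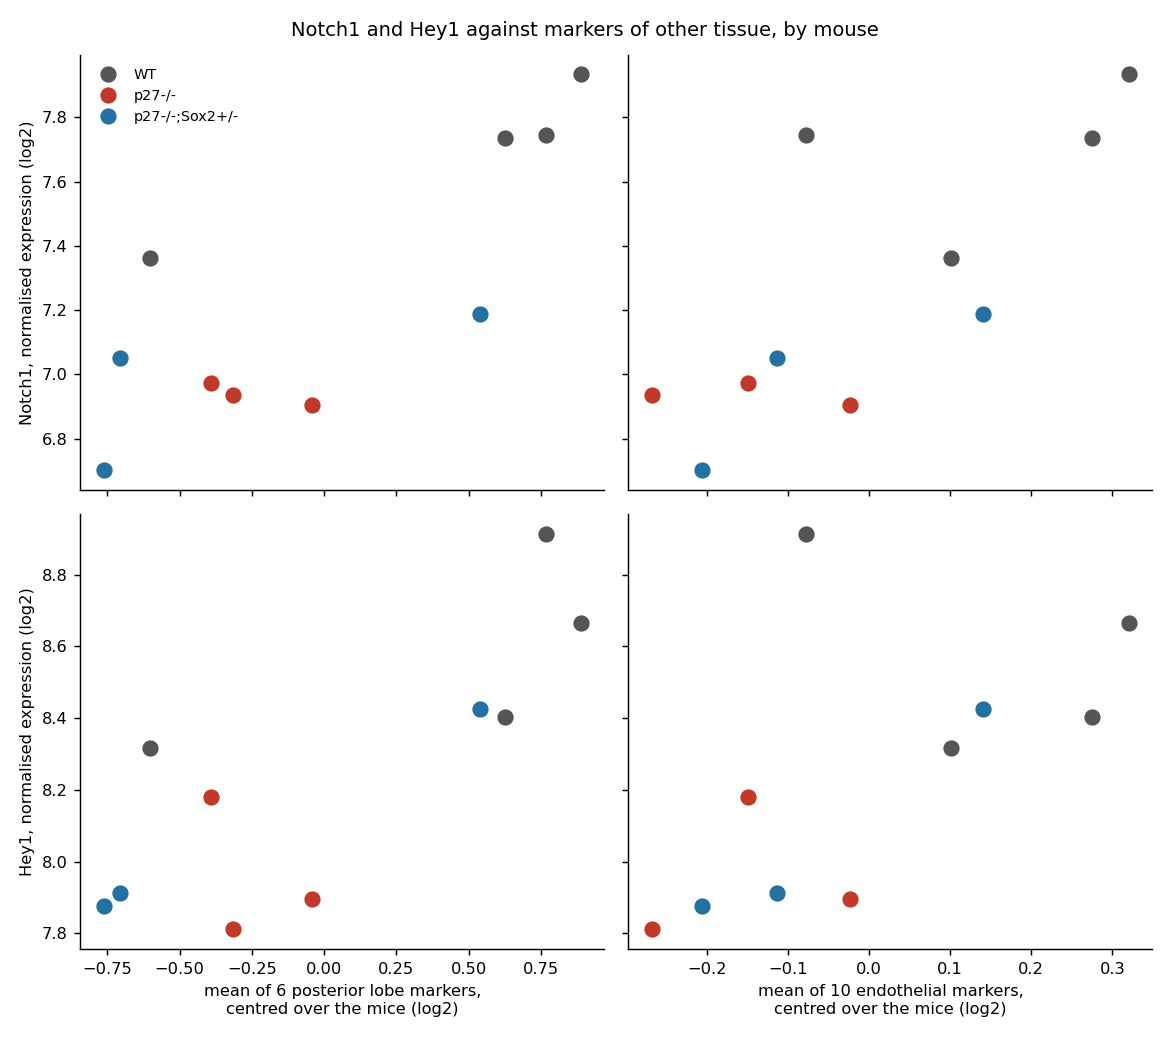
Log2 value of Notch1 (top) and Hey1 (bottom) in each mouse against the mean of 6 posterior lobe markers (left) and of 10 endothelial markers (right), both centred over the mice, for WT (grey), p27-/- (red) and p27-/-;Sox2+/- mice (blue). WT replicate 2, with a posterior lobe mean of -0.60, has the lowest Notch1 (7.36) and Hey1 (8.32) values of WT. Its Notch1 value is above that of every mutant, and its Hey1 value is not. Among the mutants p27-/-;Sox2+/- replicate 3, at 0.54, has the highest Notch1 (7.19) and Hey1 (8.42) values.

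The genes whose values followed those of the 2 called members most closely were found among 14853 other tested genes with a symbol, by Pearson's r over the 10 samples. For Notch1 they were Shisa9, an auxiliary protein of glutamate receptors (r = 0.991), Slc41a1, a magnesium transporter (r = 0.979), and Prelp, a proteoglycan of the extracellular matrix (r = 0.973). With genotype means removed, r over all 10 samples was 0.95, 0.938 and 0.89. These genes were chosen by r over the same samples. For Hey1 they were Omg, a glycoprotein of oligodendrocytes and myelin (r = 0.971), Prex2, an exchange factor for Rac (r = 0.971), and Swap70, an actin-binding exchange factor (r = 0.969), with 0.944, 0.945 and 0.979 after genotype means were removed. All points share their libraries and tissue pieces, and these are descriptions of 10 samples.

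The other genes of the pathway were taken from a list of 51 genes, from ligand processing to nuclear complexes and targets, of which 44 were tested, Dlk2, Hes3, Hes5 and Nrarp were below the minimum, and Hes2, Neurog2 and Atoh1 were not analysed here. In p27-/- against WT 3 of the 44 were called, of which 1 rose (Mfng) and 2 fell (Maml2 and Heyl), and 10 had an unadjusted p under 0.05, 6 higher and 4 lower, near the 24.1% of all tested genes. Their median log2 fold change was 0.02, against 0.01 for all tested genes, and the share called, 3 of 44, may be set beside the 7.78% called over all genes.

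Maml2 (ENSMUSG00000031925, chromosome 9 from 13296561 to 13709533), which encodes a Mastermind co-activator of cleaved Notch, had log2 values of 9.31, 9.02, 9.42 and 9.39 in WT, of 8.35, 8.69 and 8.36 in p27-/- and of 9.05, 8.90 and 8.86 in p27-/-;Sox2+/- samples. The p27-/- samples were lower than all others, and the p27-/-;Sox2+/- samples lay between them and most WT samples. It fell by 0.82 on the log2 scale in p27-/- (standard error 0.12, limma adjusted p = 0.00152), and the value for p27-/-;Sox2+/- was -0.34 (adjusted p = 0.134). The call in p27-/- held in every one of the alternatives run, both marker covariates included (adjusted p up to 0.0154). Between the mutants the log2 difference was 0.47 (standard error 0.12, limma adjusted p = 0.255), without overlap, and it passed with array weights (adjusted p = 0.0448).

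Heyl (ENSMUSG00000032744), a further Hey target, had values of 7.00, 6.52, 6.85 and 6.68 in WT, of 6.10, 6.05 and 6.26 in p27-/- and of 6.64, 6.52 and 6.83 in p27-/-;Sox2+/- samples. The p27-/- samples alone stood below the rest. It fell by 0.62 on the log2 scale in p27-/- (standard error 0.14, limma adjusted p = 0.0155), the value for p27-/-;Sox2+/- was -0.10 (adjusted p = 0.753), and between the mutants the difference of 0.53 did not pass (adjusted p = 0.284). The Heyl call in p27-/- was lost without p27-/- replicate 1 (adjusted p = 0.0579) or replicate 2 (0.0679), and with the posterior lobe (0.0943) or endothelial (0.165) markers as a covariate.

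Fringe proteins add sugars to Notch receptors and so change which ligands they answer to. Mfng (ENSMUSG00000018169, chromosome 15 from 78755882 to 78773516) had values of 8.25, 7.63, 7.39 and 7.75 in WT, of 8.45, 8.67 and 8.49 in p27-/- and of 8.36, 8.41 and 8.16 in p27-/-;Sox2+/- samples. WT replicate 1 stood nearest to the mutants and overlapped the p27-/-;Sox2+/- samples but not the p27-/- samples. It rose by 0.78 on the log2 scale in p27-/- (standard error 0.16, limma adjusted p = 0.0116), and the value for p27-/-;Sox2+/- was 0.55 (adjusted p = 0.0839), the latter passing without WT replicate 1 (0.72, adjusted p = 0.00613). The Mfng call in p27-/- was lost without p27-/- replicate 2 (adjusted p = 0.0563) and with the posterior lobe markers as a covariate (0.0542). It was also lost, just at the threshold, with the endothelial markers (0.05 after rounding). Lfng (ENSMUSG00000029570), whose promoter is shown above, ranged from 3.41 to 3.85 in WT, from 3.58 to 3.75 in p27-/- and from 3.36 to 3.39 in p27-/-;Sox2+/- samples, and differed by -0.32 between the latter and WT (standard error 0.10, limma adjusted p = 0.111). The p27-/-;Sox2+/- samples were below all others for Lfng.

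In p27-/-;Sox2+/- against WT none of the 44 genes was called by limma and 7 had an unadjusted p under 0.05, 4 higher and 3 lower, near the 17.8% of all tested genes. Array weights called 4 of the 44 (Dlk1, Lfng, Mfng and Neurl1b), where they called 1240 of all 17268 tested genes. Between the mutants none was called by limma, and 4 had an unadjusted p under 0.05, where 6.65% of all tested genes did. Array weights called 1 of the 44 there, Maml2, where they called 283 of all 17268 tested genes. Named after its values were seen, the non-canonical ligand Dlk1 had a log2 fold change of -0.83 in p27-/- (standard error 0.31, adjusted p = 0.113) with a WT range of 6.97 to 8.71, the highest being WT replicate 2, the sample with the most anterior lobe hormone transcript.

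**Figure D5:**
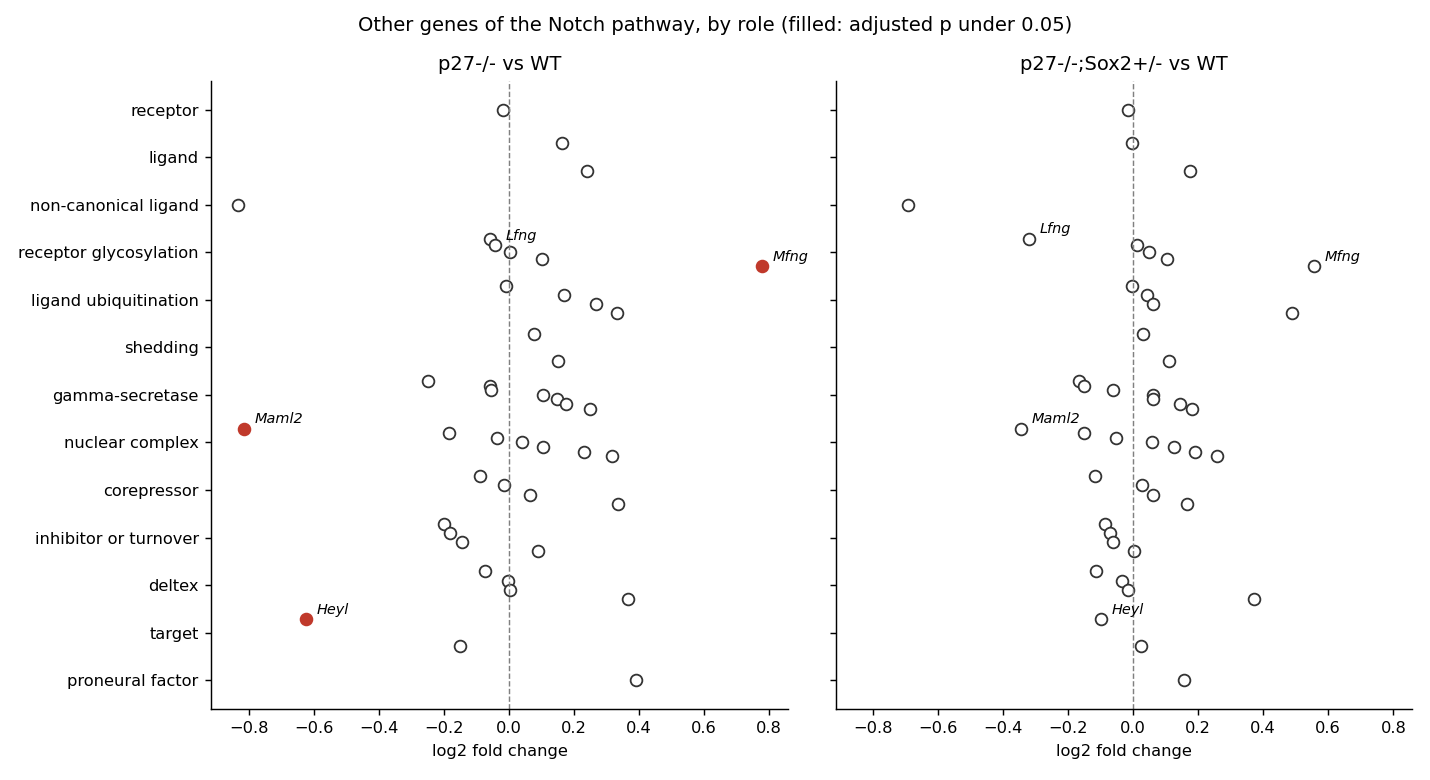
Log2 fold change of the 44 tested genes of the wider pathway list against WT, 1 point per gene in rows by role, for p27-/- (left) and p27-/-;Sox2+/- (right), filled where the limma adjusted p was under 0.05. Mfng (0.78), Maml2 (-0.82) and Heyl (-0.62) are filled in p27-/-, and in p27-/-;Sox2+/- the same genes, at 0.55, -0.34 and -0.10, are not.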

How the data were processed

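RNA from dissected IL of 10 mice was sequenced in bulk, with 1 library per mouse and samples grouped by the genotype in the labels. The authors aligned the reads with STAR 2.5.2a, counted them with RSEM 1.3.30 on the Ensembl GRCm38 transcriptome, normalized them with DESeq2 1.18.1 and deposited 1 table of log2 values. The transformation is not given in the sources used here. The strand was not used in counting, so reads from a gene and an antisense partner cannot be told apart. Depth is unknown from the table, and no interval that needs it is given.

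Here 17268 of 29527 genes, whose mean reached 10 in linear units (a log2 value of 3.32), were tested. The test was limma (version 3.58.1, under R 4.3.3) with a trend of the variance, in 1 fit of 3 genotypes without a block, with Benjamini-Hochberg adjustment over all tested genes and a threshold of 0.05. The model was tested on simulated data. The p-values measure the spread between mice. The members, the lists of markers and pathway genes, the rule for named genes and the tests were chosen with earlier results of these data known. Named pathway genes were those called in any comparison and the 3 with the smallest p in each, and likeness was given for called members.

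The alternatives with all samples were array weights, no trend, no filter, a mean of at least 50, quantile normalization, median centring, a fit of 2 groups at a time, Xist as a covariate and a replicate block. Each of the 10 samples was also left out in turn, and the 2 marker covariates were added after the data were seen. Positions and promoters are from RefSeq (GRCm38.p6), and exon lengths from GENCODE M1, used for lengths only. Figures were drawn with matplotlib 3.10.9 under Python 3.11.15.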

Additional observations from a re-analysis of the deposited data

Results flagged for a closer look

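Sox2 in WT was flagged because 1 sample stood apart: WT replicate 3 had a log2 value of 7.75 against 7.34 to 7.39 in the other WT samples, and its gap to the nearest divided by the range of the group was 0.885, above Dixon's 95% critical value for 4 samples. Of 16 genes examined this way in WT, 1 was flagged, and chance alone gives about 1 in 20, or 0.8 here. The same sample had the highest Hey1 (8.91), Hey2 (5.88) and Hes6 (7.48) values of WT. The cause was not tested.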

How the results depend on the processing

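In p27-/- against WT the count of all genes called, 1343, became 831 with no filter, 807 with only the 2 groups compared, 595 with the replicate block, 372 with posterior lobe markers and 361 with endothelial markers as a covariate, and 403 to 1709 with a sample left out. The count of the 10 members, 2, became 1 with no filter, 1 with the replicate block, 1 with posterior lobe and 0 with endothelial markers, and 1 to 3 with a sample left out. That of the 44 pathway genes, 3, became 5 at a mean of at least 50, 6 with array weights, 1 with either marker covariate, and 1 to 6 with a sample left out. In p27-/-;Sox2+/- against WT, 468 genes became 260 with only the 2 groups compared, 1240 with array weights, 209 with the block, 100 and 239 with posterior lobe and endothelial markers, and 80 to 658 with a sample left out. The members called, 1, became 3 with array weights (Notch1, Hes1 and Hey1), 0 with either marker covariate, and 0 to 1 with a sample left out, and the pathway genes called, 0, became 4 with array weights and 0 to 2 with a sample left out. Between the mutants, 25 genes became 6 with no filter, 45 with the 2 groups only, 8 with no trend, 283 with array weights, 15 with quantile normalization, 2 with the block, 12 with endothelial markers and 0 to 41 with a sample left out, and array weights called 1 pathway gene. With the block, Hey1 in p27-/- had a log2 fold change of -0.58 (limma adjusted p = 0.0608) and so was lost, and no other call of a member or named pathway gene changed. Same-numbered samples had correlations of -0.24 to 0.18, and in most of these comparisons the highest correlation was with a sample of another number. With 3 or 4 mice per genotype this check cannot exclude a pairing, and the main fit does not use the numbers.

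Differences near 0 turned sign in some settings. Against WT, Jag1 in p27-/- was 0.121 with endothelial markers and -0.178 to 0.0515 with a sample left out, and Lfng in p27-/- was -0.139 to 0.00925. In p27-/-;Sox2+/-, Notch2 was -0.0435 with array weights, -0.0286 with quantile normalization, -0.0571 with endothelial markers and -0.0849 to 0.136 with a sample left out. Jag1 there was -0.0876 with array weights, -0.00173 with Xist as a covariate and -0.104 to 0.092 with a sample left out, and Heyl was 0.0563 and 0.00037 with posterior lobe and endothelial markers. Between the mutants, Notch1 was -0.0993 with array weights, -0.0144 with endothelial markers and -0.0626 to 0.181 with a sample left out, Notch3 was -0.0291 with array weights and -0.0359 to 0.189, Jag1 was -0.0427 to 0.188, Hey1 was -0.0686 to 0.217, and Hes1 was -0.0866 with array weights, -0.0027 with median centring, -0.0043 with quantile normalization, -0.0416 with endothelial markers and -0.0798 to 0.0701 with a sample left out. The cause of these changes was not tested. No setting moved the median of all genes by more than 0.04.

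The number of mice limits what can be called, the transformation of low genes is not given, exon lengths come from an older annotation, and posterior lobe and endothelial marker levels differed between samples, within genotypes too.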

Other observations

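Of 5 listed cell cycle genes, 5 rose in p27-/- against WT (median log2 fold change 0.94), and 2 rose in p27-/-;Sox2+/- (median 0.44). Among the 4 melanotroph genes 1 rose in p27-/-, Pcsk2, a protease of hormone precursors (log2 fold change 0.53, limma adjusted p = 0.0352), while the values of Pomc (0.31, adjusted p = 0.454) and Pax7 (0.23, adjusted p = 0.247) did not pass.

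Genes most like the members that were not called include, for Dll4, Ttk (Pearson's r = 0.934 over 10 samples, 0.897 with genotype means removed), Dck (0.931 and 0.884) and Ccnf (0.924 and 0.965), and for Hes1, Lrrk1 (0.974 and 0.918). They were found by the same measure among 14853 genes and are descriptions, named after their values were seen.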
